A study of Mus musculus with 9 samples.

Results

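The neuronal RNA-binding proteins described here are 10 genes of 4 families, Elavl2, Elavl3, Elavl4, Nova1, Nova2, Rbfox1, Rbfox2, Rbfox3, Celf3 and Celf4. They were taken by symbol from the 57010 Ensembl genes of a table of RNA-seq read counts, which held all 10. Cortical tissue was microdissected at E12.5 from single mouse embryos of 3 genotypes, and 1 library was sequenced for each of 3 embryos per genotype. Control (Ctrl) embryos are labelled WT, and the sources used here do not state whether they carry Cre. Cnot3 cKO embryos carry Cnot3 lox/lox alleles and Cnot3;Trp53 dcKO embryos carry Cnot3 lox/lox and Trp53 lox/lox alleles, both recombined by Emx1-Cre. That Cre acts in progenitors of the dorsal telencephalon and their progeny, so other cells of the dissected tissue keep both genes. Cnot3 encodes a subunit of the CCR4-NOT complex, which shortens mRNA poly(A) tails, and Trp53 encodes p53.

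ELAVL proteins (also called Hu proteins) bind U-rich and AU-rich sequences of mRNAs and are known for stabilizing them and for changing their splicing and polyadenylation. NOVA proteins bind RNA through KH domains and RBFOX proteins bind the motif UGCAUG, and both are splicing regulators of neurons. CELF proteins bind GU-rich elements and act in splicing, translation and decay. In the developing cortex the families are switched on in steps as progenitors give rise to neurons, and RBFOX3, better known as NeuN, marks neurons that have left the cell cycle.

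The 3 neuronal Elavl genes show how close paralogs differ in base composition, a property on which these libraries also differed. The stretches below, 1 from each gene, code for the RNP1 motif of the first RNA recognition motif and encode the same 8 residues. They are read from GENCODE M21 transcripts (GRCm38), with the last base of each codon in capitals. Elavl2 (chr4:91281286-91281309, minus strand, exon 4 of its longest coding isoform) and Elavl3 (chr9:22036384-22036407, minus strand, exon 3) differ at 4 of 24 bases. Elavl2 and Elavl4 (chr4:110226617-110226640, minus strand, exon 3) differ at 5.
Elavl2: ttGggTtaCggAttTgtGaaCtaC
Elavl3: ctGggCtaTggGttTgtGaaCtaC
Elavl4: ttAggGtaTggAttTgtTaaCtaT
G or C ends 5 of 8 codons in Elavl2, 6 in Elavl3 and 2 in Elavl4. Over the whole coding sequence, G or C stands at the last codon position in 50% of codons of Elavl2, 76.6% of Elavl3 and 62.4% of Elavl4. Nova1 and Nova2 differed most, with 42.7% and 86.4%.

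The libraries held 21193798 to 45073349 counted reads. Cnot3 was at 3291, 3000 and 2756 normalized read counts in Ctrl, 420, 484 and 408 in cKO and 206, 1353 and 534 in dcKO. Trp53 was at 423, 3098 and 579 in dcKO, against 6029 to 7123 in Ctrl. Normalized read counts are reads scaled to a common library size with TMM factors. The second dcKO embryo thus kept more of both targeted transcripts than the other dcKO embryos, and values without it are given where they matter. The dissected region was checked with Emx1, Emx2 and Lhx2 of the dorsal telencephalon, which were detected in all 9 embryos. All 3 were lower in every cKO embryo than in every Ctrl embryo, and in dcKO they overlapped Ctrl. Emx1 was at 1228 to 3366 in Ctrl, 572 to 666 in cKO and 223 to 2270 in dcKO. Lhx2 was at 13117 to 23957, 7721 to 8886 and 9608 to 17486. DESeq2 called Emx1 and Lhx2 lower in cKO (edgeR log2 fold changes of -1.85 and -1.19), as it did 3.87% of all tested genes (the background). Of 8 subpallial and GABAergic markers, Gad2 and Dlx2 reached 57 and 63 in the second dcKO embryo and at most 7 and 9 in the others. The summed level of those 8 markers was 35 to 42 in Ctrl, 63 to 127 in cKO and 50 to 187 in dcKO. In cKO nearly all of it was Lhx6, at 51 to 125 against 24 to 36 in Ctrl, while Lhx6 was at 19 in the second dcKO embryo. Summed over each list, markers of blood vessels and blood lay lower in every dcKO embryo than in every Ctrl embryo, although single markers overlapped in both lists, with summed levels of 6 endothelial markers of 5979 to 7711 in Ctrl, 5356 to 7642 in cKO and 3672 to 3882 in dcKO. Those of 8 erythroid markers were 204780 to 312014, 255195 to 393022 and 126090 to 179500. Those of 6 meningeal markers were 21888 to 24089, 12684 to 19470 and 9090 to 14532, below Ctrl in every embryo of both mutants. In dcKO DESeq2 called 3 of the 6 meningeal, 2 of the 6 endothelial and 4 of the 8 erythroid markers lower (background 3.79%). In cKO it called none of them lower. The sum of 10 radial glia markers was 85438 to 101429, 80057 to 97486 and 82540 to 95047, but its largest part, Vim, was higher in every cKO embryo (46549 to 56969) than in Ctrl (32526 to 41981). Of the 10, 6 had all cKO embryos below Ctrl, as did 28.0% of all tested genes. The median log2 fold change was -0.43 in cKO and -0.072 in dcKO. DESeq2 called Hes5 and Notch1 lower in cKO (edgeR log2 fold changes of -1.83 and -1.71, background 3.87%), and Notch1 in dcKO (-1.60, background 3.79%). The summed level of 6 microglia markers was 838 to 1081 in Ctrl, 922 to 1855 in cKO and 362 to 762 in dcKO, below Ctrl in every dcKO embryo. The sums of 5 intermediate progenitor, 7 early cortical neuron and 7 Cajal-Retzius markers overlapped Ctrl in dcKO, and in cKO too. Among these markers DESeq2 called Gadd45g, a gene of intermediate progenitors, lower in both mutants (edgeR log2 fold changes of -2.56 and -1.85, background 3.87% and 3.79%) and no other. The part of these cell types in the results was not tested.

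All 10 genes had more than 10 reads in every embryo and were tested among 13680 genes that did. Levels between genes were compared as RPKM, counted reads scaled to exon length and library size, with exon lengths from GENCODE M21. In Ctrl cortex Elavl4, at 20.1 ± 2.16 RPKM (SD, n = 3), was the highest, followed by Rbfox2 at 19.7 ± 0.665 and Elavl3 at 18.25 ± 4.03. The ranges of neighbouring genes in this order overlapped for these 3 genes. Elavl2 followed at 14.1 ± 0.242, Nova2 at 10.6 ± 0.539 and Celf3 at 7.67 ± 2.43, each below the full range of the gene before it. Nova1 (3.11 ± 0.417), Rbfox3 (3.07 ± 1.18) and Celf4 (2.12 ± 0.623) came next, all below the range of Celf3. Among these 3, the ranges of neighbours in this order overlapped. Rbfox1, at 0.415 ± 0.0679, was the lowest, with every Ctrl embryo below every Ctrl value of the other 9 genes. With the longest transcript as the length, Elavl2 came first at 28.0 RPKM and Elavl4 second at 26.1. The other 2 places of the top 4 went to Elavl3 (25.1) and Rbfox2 (23.2).

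All 10 genes had a lower estimate in cKO than in Ctrl, and 6 of 10 did in dcKO. Elavl3 and Nova2 were lower in each of the 6 mutant embryos than in every Ctrl embryo, at 48.4% and 69.3% of the Ctrl mean in cKO and 48.4% and 64.0% in dcKO. With a correction for GC content the log2 fold change of Nova2 shrank to -0.21 in cKO (-0.53 before) and to -0.022 in dcKO (-0.64 before). Rbfox3 had the largest estimated difference before correction for GC content, with wide spread between embryos, and after that correction Elavl3 had the largest in both mutants. Each gene was tested with edgeR's quasi-likelihood test in 1 model of all 9 embryos and called at a Benjamini-Hochberg adjusted p under 0.05 with an absolute log2 fold change above 1. None of the 10 was called lower in cKO, where 0.0% of all tested genes were, and none in dcKO, where 0.0% were. At an unadjusted p under 0.05, edgeR had 2 of 10 lower in cKO (background 11.7%) and 3 of 10 lower in dcKO (background 11.2%). DESeq2, the tool the study used, called 1 of 10 lower in cKO (background 3.87%) and 1 of 10 in dcKO (background 3.79%), Elavl3 in both. Limma's voom with sample quality weights called 2 of 10 lower in cKO (background 6.66%) and 3 of 10 in dcKO (background 15.9%). In this bulk tissue, fewer cells of a type and less RNA per cell cannot be told apart, and both mutants were compared with the same 3 Ctrl embryos.

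**Figure D1:**
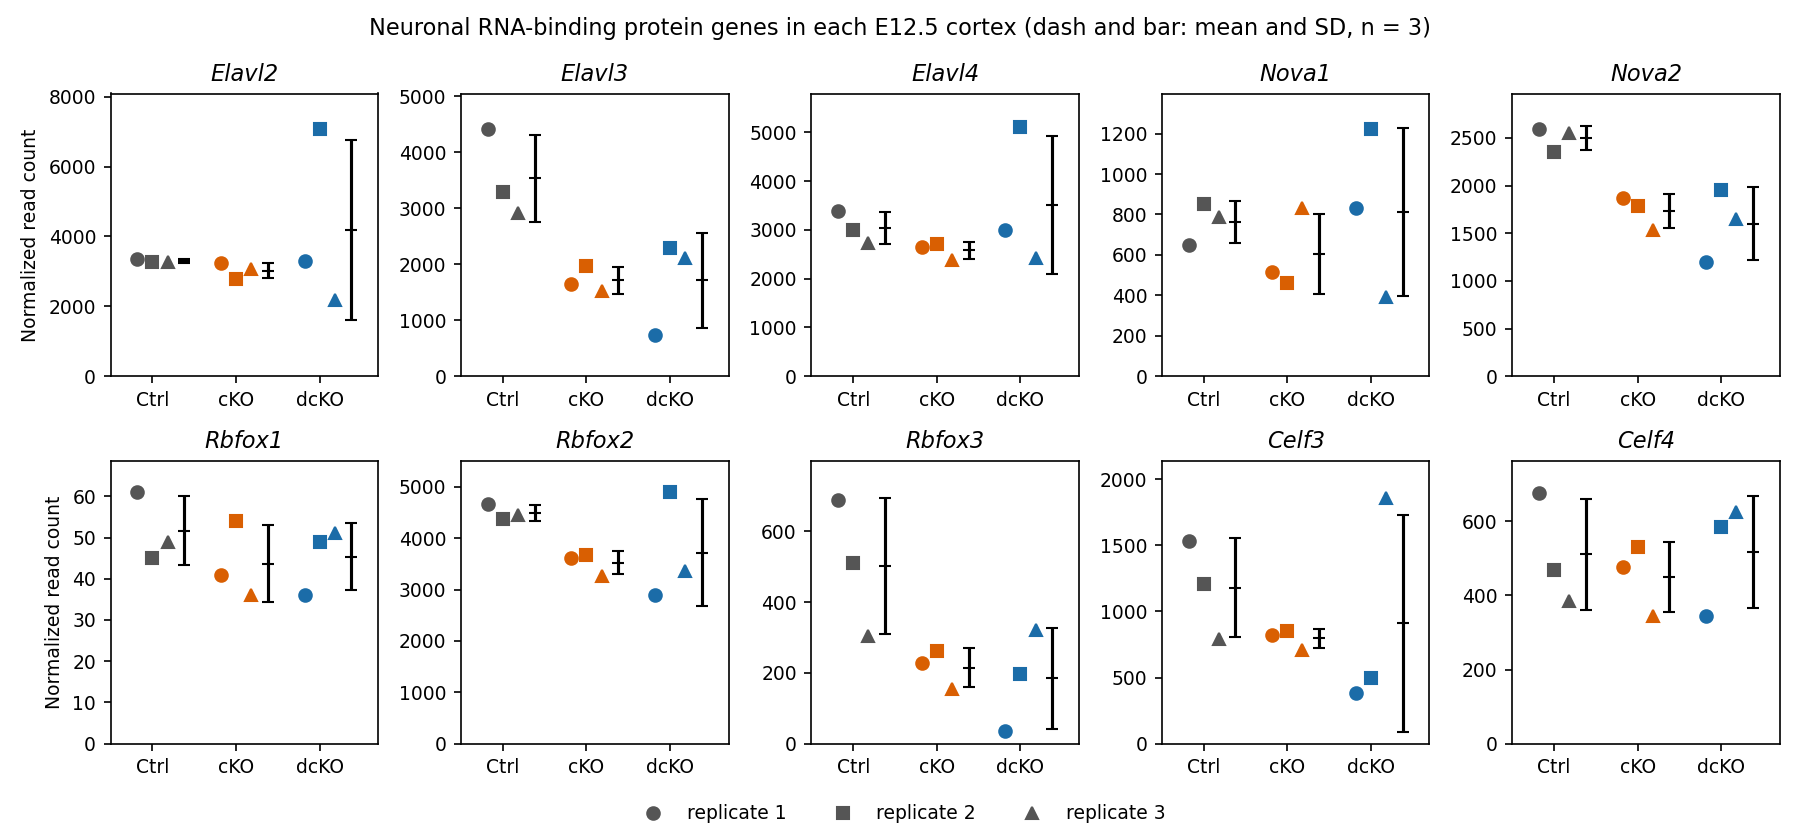
Normalized read counts of the 10 genes (vertical axes, each starting at 0) in Ctrl, cKO and dcKO embryos. Each point is 1 embryo, its shape gives the replicate number, and the dash and bar give the mean and SD of 3 embryos. Elavl3 and Nova2 have all 6 mutant embryos below all 3 Ctrl embryos, while the second dcKO embryo is the highest of all 9 for Elavl2, Elavl4, Nova1 and Rbfox2.

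Elavl3 encodes HuC, an ELAVL protein of most neurons. It was at 4403, 3280 and 2904 normalized read counts in Ctrl, 1639, 1968 and 1517 in cKO and 730, 2280 and 2118 in dcKO. The lowest Ctrl embryo stood above the highest mutant embryo, and the first dcKO embryo was the lowest of all. The log2 fold change was -1.05 ± 0.37 (SE, edgeR adjusted p = 0.108) in cKO and -1.05 ± 0.37 (edgeR adjusted p = 0.0995) in dcKO. DESeq2 gave -1.06 (adjusted p = 0.0421) and -1.08 (adjusted p = 0.0375), both past the call rule. In cKO that call was lost when any 1 of the 3 Ctrl or 3 cKO embryos was left out (DESeq2 adjusted p = 0.0748 to 0.246, edgeR adjusted p = 0.164 to 0.322). Without the first dcKO embryo the dcKO estimate was -0.68 (edgeR adjusted p = 0.169), and in DESeq2 it was then -0.71 and under the fold limit. Without the second it was -1.31 (edgeR adjusted p = 0.0521) and without the third -1.23 (edgeR adjusted p = 0.0229). DESeq2 then gave -1.35 (adjusted p = 0.00476) and -1.25 (adjusted p = 0.00225), both past the call rule (background 4.42% and 15.9%). Over all alternatives run, the dcKO estimate ranged from -1.99 with voom weights to -0.46 with the number in the embryo code as a block, where the dcKO effect rests on 1 pair of embryos. A two-sided exact permutation test over these 6 embryos gave p = 0.1 in each mutant, the smallest it can give.

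Elavl2 encodes HuB, found in neurons and in germ cells. It was at 3357, 3255 and 3264 in Ctrl, 3231, 2786 and 3053 in cKO and 3284, 7080 and 2167 in dcKO. The cKO embryos lay just under the Ctrl embryos, and the dcKO embryos lay on both sides of them. Its log2 fold change was -0.12 ± 0.35 in cKO (edgeR adjusted p = 0.846) and 0.34 ± 0.35 in dcKO (edgeR adjusted p = 0.526). Without the second dcKO embryo the dcKO estimate was -0.27, so that 1 embryo decided its sign.

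Elavl4 encodes HuD, known for acting in neuronal differentiation and neurite growth. It was at 3385, 3000 and 2735 in Ctrl, 2643, 2713 and 2389 in cKO and 2999, 5120 and 2431 in dcKO. The highest cKO embryo was under the lowest Ctrl embryo by less than the spread within Ctrl, and dcKO overlapped Ctrl. The log2 fold change was -0.24 ± 0.25 in cKO and 0.21 ± 0.25 in dcKO, and without the second dcKO embryo the latter was -0.16.

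Nova2 encodes the NOVA protein that predominates in the neocortex. It was at 2593, 2355 and 2549 in Ctrl, 1872, 1790 and 1535 in cKO and 1199, 1957 and 1645 in dcKO. Both mutants lay below Ctrl without overlap, and Ctrl varied little, at 2499 ± 127 (SD, n = 3). The log2 fold change was -0.53 ± 0.20 in cKO (edgeR adjusted p = 0.124) and -0.64 ± 0.20 in dcKO (edgeR adjusted p = 0.0756). DESeq2 gave adjusted p = 0.0806 in cKO and 0.0244 in dcKO, under a fold change of 2 in each. Without the first, the second or the third dcKO embryo the dcKO estimate was -0.47, -0.81 and -0.66, with edgeR adjusted p = 0.201, 0.0171 and 0.0184. After GC correction its edgeR adjusted p was 0.604 in cKO and 0.967 in dcKO. At an adjusted p under 0.05 and any fold, DESeq2 counted 1 of 10 genes lower in cKO (Elavl3, background 7.07%) and 2 of 10 in dcKO (Elavl3 and Nova2, background 7.4%).

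Nova1 encodes the NOVA protein best known from the hindbrain and spinal cord. It was at 650, 850 and 787 in Ctrl, 517, 463 and 833 in cKO and 831, 1221 and 391 in dcKO. The third cKO embryo was at the level of Ctrl, and the 3 dcKO embryos covered the widest range. The log2 fold change was -0.34 ± 0.38 in cKO and 0.10 ± 0.38 in dcKO, within the spread of the embryos. Without the second dcKO embryo the dcKO estimate was -0.32.

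Rbfox3 encodes NeuN. It was at 688, 512 and 305 in Ctrl, 229, 262 and 154 in cKO and 35, 198 and 321 in dcKO. The Ctrl embryos alone spanned more than a 2-fold range. The cKO embryos lay below Ctrl, the first dcKO embryo was the lowest of all, and the third dcKO embryo was above the lowest Ctrl embryo. The log2 fold change was -1.22 ± 0.63 in cKO (edgeR adjusted p = 0.241) and -1.45 ± 0.63 in dcKO (edgeR adjusted p = 0.163). Without the first dcKO embryo the dcKO estimate was -0.95 (edgeR adjusted p = 0.273), and without the third it was -2.10 and passed the call rule in edgeR, as did 15.3% of all tested genes in the lower direction. With the number in the embryo code as a block it was 0.074, from 1 pair of embryos.

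Rbfox2 encodes the RBFOX protein of many cell types besides neurons. It was at 4665, 4370 and 4455 in Ctrl, 3617, 3680 and 3272 in cKO and 2899, 4893 and 3362 in dcKO. All cKO embryos lay below all Ctrl embryos, and in dcKO the second embryo stood above them. The log2 fold change was -0.35 ± 0.20 in cKO and -0.27 ± 0.20 in dcKO, and without the second dcKO embryo the latter was -0.52. Rbfox1, which encodes a splicing regulator of mature neurons, had the fewest reads of the 10, at 61, 45 and 49 in Ctrl, 41, 54 and 36 in cKO and 36, 49 and 51 in dcKO. Its groups overlapped, with log2 fold changes of -0.23 ± 0.34 in cKO and -0.18 ± 0.34 in dcKO.

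Celf3 and Celf4 encode CELF proteins found mainly in the nervous system. Celf3 was at 1536, 1208 and 790 in Ctrl, 821, 854 and 712 in cKO and 383, 494 and 1855 in dcKO. The first and second dcKO embryos were the lowest of all 9 and the third was the highest. Its log2 fold change was -0.57 ± 0.52 in cKO and -0.37 ± 0.52 in dcKO. Without the first, the second or the third dcKO embryo the dcKO estimate was -0.0060, -0.077 and -1.43, and edgeR called it only in the last case, where 15.3% of all tested genes were called lower. Celf4 was at 677, 470 and 385 in Ctrl, 476, 530 and 344 in cKO and 345, 584 and 624 in dcKO. Its groups overlapped, with log2 fold changes of -0.18 ± 0.32 and 0.02 ± 0.32.

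**Figure D2:**
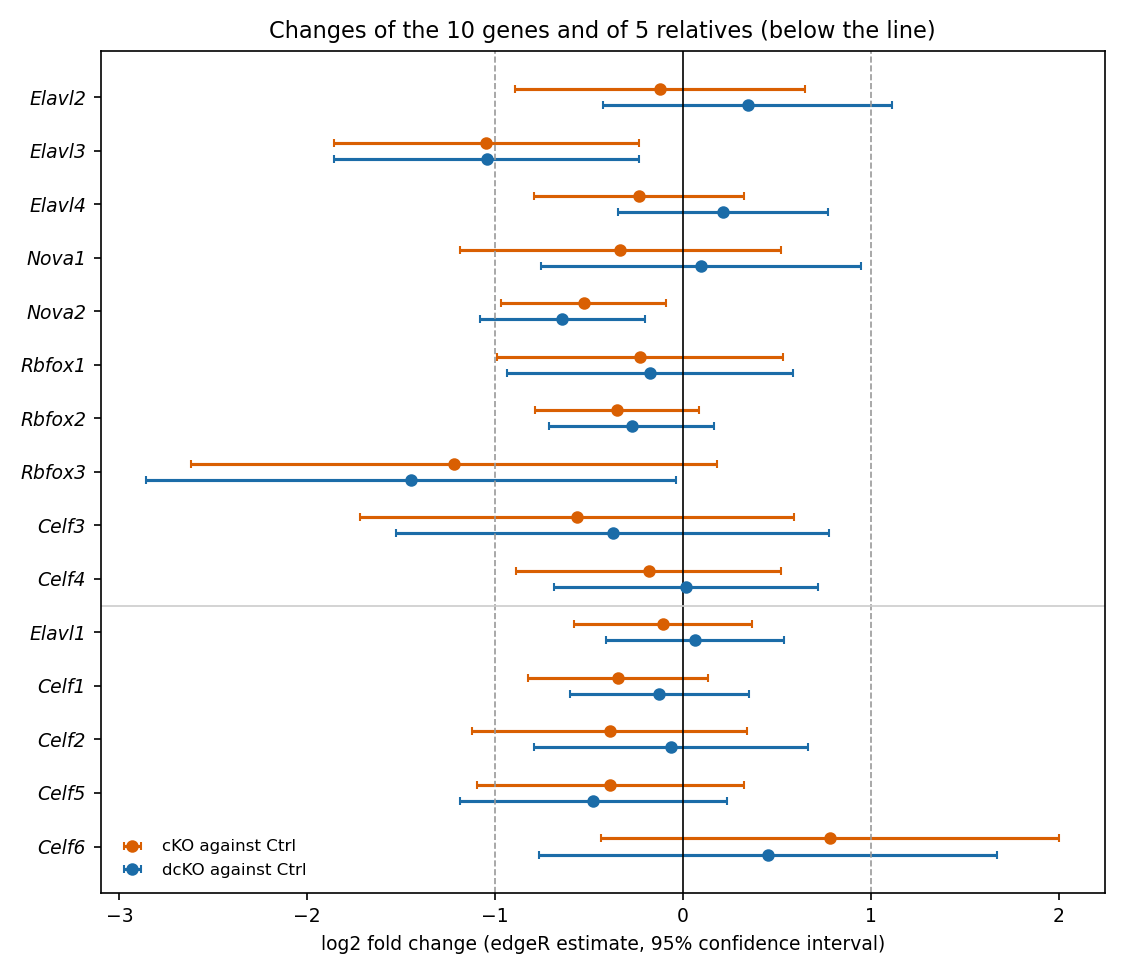
Log2 fold change against Ctrl (horizontal axis, edgeR estimate with its 95% confidence interval) of the 10 genes and, below the line, of 5 other Elavl and Celf genes, in cKO and in dcKO. Dashed lines mark a log2 fold change of -1 and 1. The intervals of Elavl3 and Nova2 lie below 0 in both mutants, that of Rbfox3 in dcKO only, where its upper end is -0.04, and all others include 0.

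By position alone, 6 of 10 genes had all 3 cKO embryos below all 3 Ctrl embryos (Elavl2, Elavl3, Elavl4, Nova2, Rbfox2 and Rbfox3), as did 28.0% of all tested genes. None had all 3 above, as did 29.2%. In dcKO 2 of 10 lay entirely below Ctrl (background 11.2%) and none entirely above (background 15.6%). Elavl3 and Nova2 had all 6 mutant embryos below Ctrl, a pattern found in 8.98% of tested genes. The median log2 fold change of the 10 was -0.34 in cKO and -0.22 in dcKO, beside 0.01 and 0.11 over all tested genes. Upper-quartile factors moved the median of all genes in cKO from 0.01 to 0.12, and that of the 10 genes was then -0.24.

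Whether loss of Trp53 beside Cnot3 altered these genes was asked by comparing dcKO with cKO directly. The log2 fold changes of the 10 ranged from -0.23 to 0.47, with 8 above 0 and a median of 0.13. Without the second dcKO embryo, which kept the most Trp53 of its group, the median was -0.083 in edgeR and -0.11 in DESeq2. None was called by edgeR in either direction (background 0.0146%), none had an unadjusted p under 0.05 (background 4.42%), and DESeq2 called none (background 0.38%). The groups overlapped for all 10. For Elavl3 the difference was 0.00 ± 0.36, with a 95% confidence interval of -0.80 to 0.81, and for Nova2 it was -0.11 ± 0.20, with an interval of -0.55 to 0.32.

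The 10 genes were next set against 16 pan-neuronal markers measured in the same embryo, among them Tubb3 and Dcx, as log2 CPM (counted reads scaled to library size) of the gene minus the mean log2 CPM of the markers. None of the 16 was called by edgeR. At an unadjusted p under 0.05, 2 were lower and 1 higher in each mutant. DESeq2 called 1 higher in cKO (Syt1, a synaptic vesicle calcium sensor) and in dcKO 1 higher (Syt1) and 1 lower (Mapt, encoding tau). The summed level of the markers was 65727 to 79384 in Ctrl, 46486 to 58845 in cKO and 38614 to 69013 in dcKO. Relative to these markers Elavl3 was lower by a log2 difference of -0.88 in cKO and -0.92 in dcKO, and Nova2 by -0.38 and -0.40. Both had all mutant embryos below all Ctrl embryos in each mutant (exact two-sided permutation p = 0.1, the smallest possible). These differences carry no GC correction, with which the log2 fold change of Nova2 itself shrank to -0.21 and -0.022. The marker mean includes Syt1, at log2 fold changes of 1.785 and 1.763. Rbfox3 was also below in both, at -1.02 and -1.59, but the third dcKO embryo, at -2.74, was next to the lowest Ctrl embryo at -2.72. Of all tested genes, 14.9% lay below Ctrl in this way in cKO and 7.57% in dcKO. The 7 markers of early cortical neurons were split, with 4 estimates below 0 and 3 above in each mutant. Their median log2 fold change was -0.58 in cKO and -0.30 in dcKO, further below 0 than those of the 10 genes. Of these 7, 3 (Bcl11a, Bcl11b and Fezf2) had all cKO embryos below Ctrl, as did 28.0% of all tested genes. Neurod6, Tbr1 and Sox5 had higher estimates in cKO, at 0.82, 0.27 and 0.17. Relative to the 16 pan-neuronal markers, the other 7 of the 10 genes overlapped Ctrl in both mutants. The median of the 10 differences was -0.21 in cKO and 0.02 in dcKO.

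**Figure D3:**
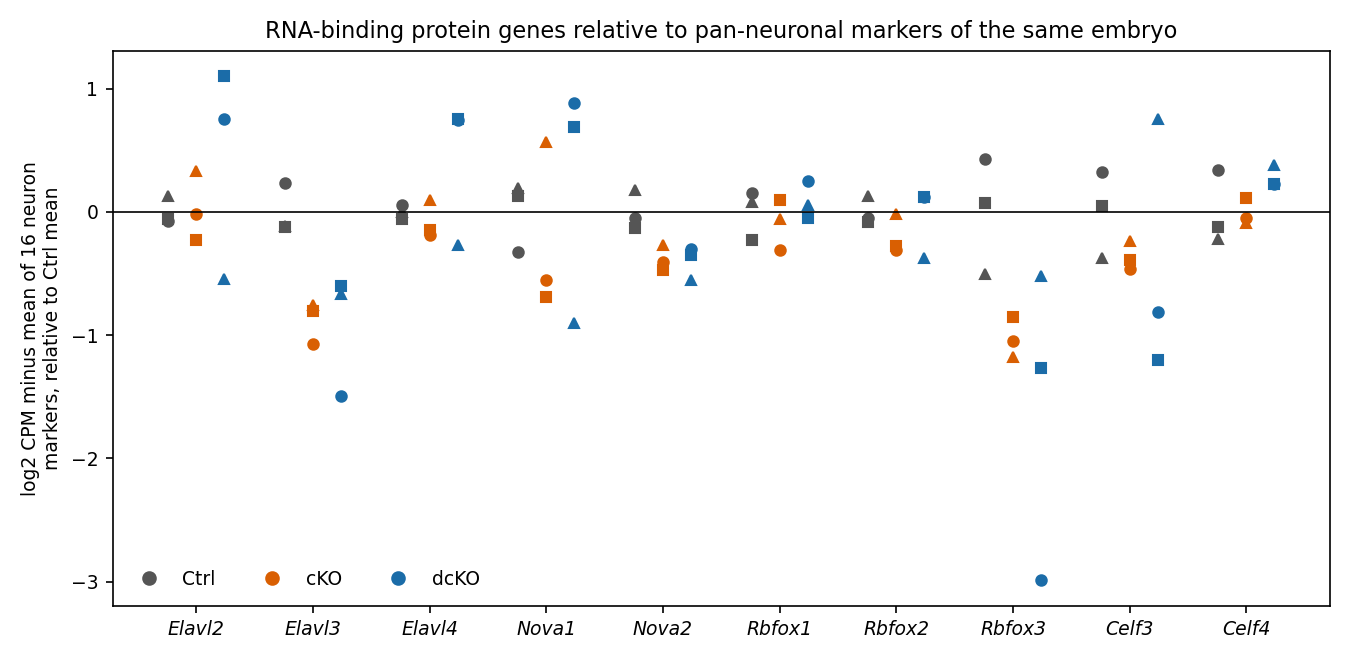
Log2 CPM of each gene minus the mean log2 CPM of 16 pan-neuronal markers in the same embryo, relative to the Ctrl mean of that difference (vertical axis), for 9 embryos. Colours give the genotype and shapes the replicate number (circle 1, square 2, triangle 3). Elavl3 and Nova2 have every mutant embryo below every Ctrl embryo, and the first and the third dcKO embryo part most for Rbfox3, Nova1 and Celf3.

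Differences between libraries followed GC content. Among all tested genes, the lowest GC quartile had a median log2 ratio to the Ctrl mean of 0.17 to 0.25 in the cKO embryos and of 0.58, 0.83 and -0.08 in the dcKO embryos. The highest GC quartile was at -0.30 to -0.50 in cKO and at -1.06, -1.13 and 0.18 in dcKO. The transcripts of Elavl2, Elavl4 and Nova1 were AT-rich (38.5%, 38.9% and 38.5% GC), and among dcKO embryos all 3 were highest in the second and lowest in the third. The most GC-rich were Rbfox3 (58.6%), Nova2 (56.3%) and Celf3 (56.2%), and among dcKO embryos Rbfox3 and Celf3 were highest in the third but Nova2 in the second. Elavl3 stood at 54.1% and Rbfox2 at 51.5%.

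With a loess correction of each library for GC content, all 10 genes had a negative estimate in both mutants. Elavl3 moved to -0.92 in cKO and -0.75 in dcKO (edgeR adjusted p = 0.095 and 0.199), both inside the fold limit. Rbfox3 shrank to -0.65 and -0.74 (edgeR adjusted p = 0.358 and 0.353), Celf3 to -0.24 and -0.074 and Nova2 to -0.21 and -0.02, while Elavl2 moved to -0.35 and -0.35, Elavl4 to -0.47 and -0.39 and Nova1 to -0.58 and -0.59. None of the 10 was called after the correction, where 1.53% of all genes were called lower in cKO and 0.00737% in dcKO, and their smallest edgeR adjusted p was 0.095 in cKO and 0.126 in dcKO.

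**Figure D4:**
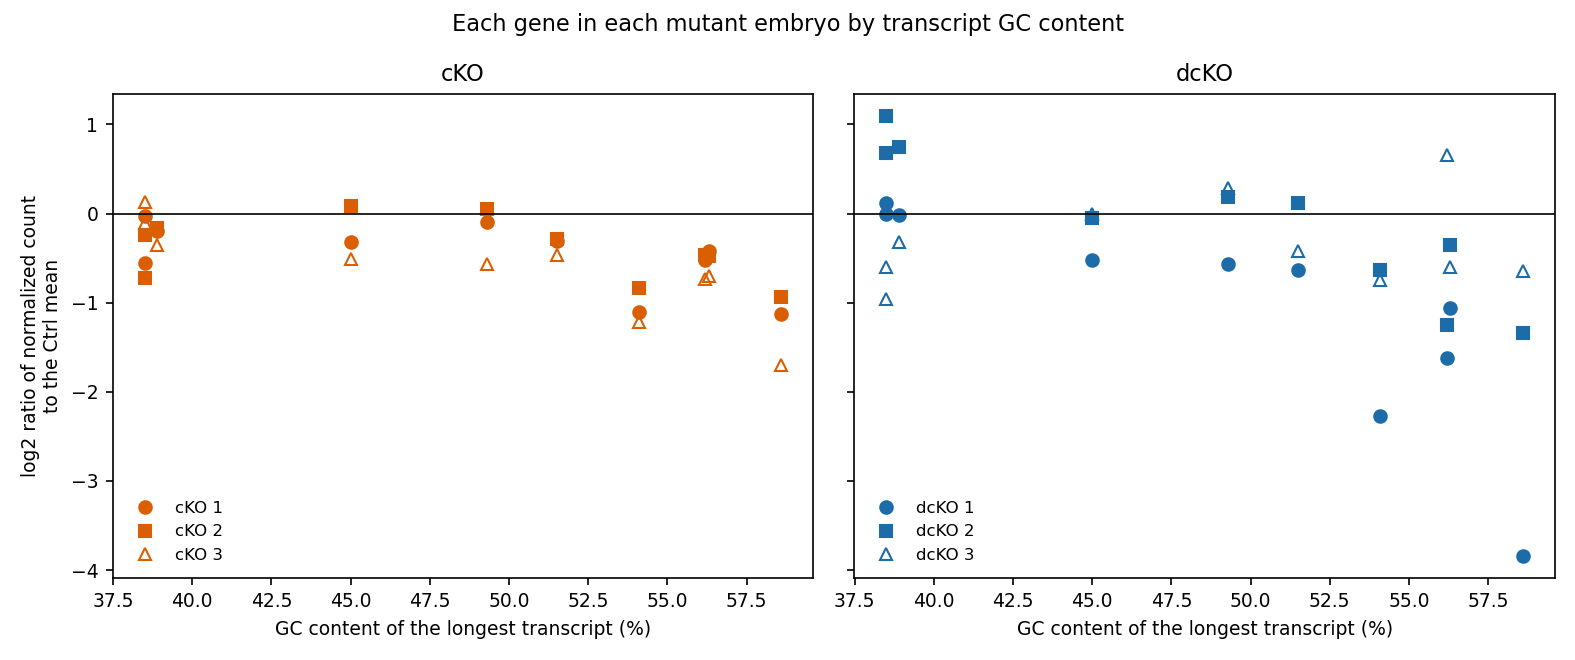
Log2 ratio of the normalized read count to the Ctrl mean (vertical axis) against the GC content of the longest transcript in percent (horizontal axis) for the 10 genes, with 1 point per gene and mutant embryo, cKO at left and dcKO at right. The AT-rich Elavl2, Elavl4 and Nova1 at left lie above 0 in the second dcKO embryo and below 0 in the third. The GC-rich Rbfox3 lies lowest, in the first dcKO embryo.

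Of the other members of these families, Elavl1 encodes HuR, which nearly all cells express, and Celf1 and Celf2 are expressed in many tissues. Elavl1 had log2 fold changes of -0.11 ± 0.21 in cKO and 0.06 ± 0.21 in dcKO. Celf1 was at -0.35 ± 0.21 and -0.13 ± 0.21, and Celf2 at -0.39 ± 0.33 and -0.06 ± 0.33, each with all 3 cKO embryos below Ctrl and dcKO overlapping it. Celf5 was at -0.39 ± 0.32 and -0.48 ± 0.32. Celf6 alone had higher estimates in both mutants, 0.78 ± 0.55 and 0.45 ± 0.55, from 24 to 107 normalized read counts. With all embryos and no GC correction, none of these 5 had an unadjusted p under 0.05 in either comparison. Neither edgeR nor DESeq2 then called any. GC correction moved Celf1 to -0.56 in cKO and -0.45 in dcKO, Celf2 to -0.67 and -0.65 and Elavl1 to -0.34 and -0.31. Celf5 moved to -0.17 and -0.13 and Celf6 to 1.34 and 1.08. Of the 5, only Celf1 in cKO then had an edgeR adjusted p under 0.05 (0.0462). Without the second dcKO embryo the dcKO estimates of Celf1 and Celf2 were -0.42 and -0.67 (edgeR adjusted p = 0.0596 and 0.0113). Celf6 alone was then above 0.

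Among 28 other neural RNA-binding protein genes, 27 were tested. Cpeb1 was left out by the filter, at 0, 0 and 8.1 normalized read counts in Ctrl, 51, 143 and 75 in cKO and 78, 0 and 73 in dcKO. At an unadjusted p under 0.05 in edgeR, 3 were lower in each mutant (background 11.7% in cKO and 11.2% in dcKO). In each mutant 2 were higher, as were 2097 (cKO) and 2464 (dcKO) of all 13680 tested genes. None was called. Their median log2 fold change was -0.17 in cKO and 0.19 in dcKO. All 3 cKO embryos lay below Ctrl for 13 of the 28 and above for 3, the untested Cpeb1 among the latter (background over tested genes 28.0% and 29.2%). Fxr1, which encodes a relative of the fragile X protein, was the only one with all 6 mutant embryos beyond Ctrl. It was at 3136, 3163 and 3694 in Ctrl, 5750, 5640 and 5849 in cKO and 7494, 6147 and 4672 in dcKO. All mutant embryos were above Ctrl, with log2 fold changes of 0.79 ± 0.19 (edgeR adjusted p = 0.0521) and 0.87 ± 0.19 (edgeR adjusted p = 0.0502), opposite in sign to Elavl3 and Nova2. DESeq2 gave Fxr1 adjusted p = 0.00637 and 0.00277, under a fold change of 2 in each. In dcKO it passed the call rule with voom weights (1.13) and in edgeR without the third dcKO embryo (1.03). So did 1491 and 1157 of 13680 genes in the higher direction. With GC correction the estimates of Fxr1 were 0.55 and 0.35 (edgeR adjusted p = 0.0656 and 0.232), and with the code number block that of dcKO was 0.34. DESeq2 called 1 of the 27, Msi1, lower in cKO (background 3.87%). This gene, named after its values were seen, encodes the progenitor protein Musashi1 and had a log2 fold change of -1.08 ± 0.28 (edgeR adjusted p = 0.0583).

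Likeness was measured over the 9 embryos as the root mean square difference in log2 CPM, after each gene's Ctrl mean was subtracted. For none of the 10 genes was the nearest gene another of the 10. Rbfox2 was nearest to Dnajc5 (0.0615), Elavl2 to Exoc5 (0.0658), Nova2 to Larp1 (0.0803), Elavl4 to Srsf2 (0.0887), Rbfox1 to Myo10 (0.108) and Celf3 to Dalrd3 (0.149). Nova1 (nearest Gm5909, 0.154), Celf4 (Ankrd6, 0.157), Elavl3 (Mn1, 0.183) and Rbfox3 (Gm11449, 0.285) had no gene as close. The 5 genes nearest to the mean profile of the 10 were Slc25a5, Pim1, Gm4737, Kalrn and Fubp3, at 0.116 to 0.121. The mean profile itself was lowest in the first dcKO embryo, at -1.02, and -0.06 in the second and -0.31 in the third.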

How the data were processed

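RNA of single E12.5 cortices was sequenced by the authors from stranded poly(A) libraries (NovaSeq, paired-end). Adapters were trimmed with Cutadapt, reads were aligned to mm39 with STAR and counted per gene with featureCounts. The authors deposited raw counts, with no normalization or filter, and 30138 of 57010 genes have no read. Versions are not given in the sources used here.

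Genes whose count exceeded 10 in all 9 embryos were tested in R 4.3.3 with edgeR 4.0.16 (TMM factors, quasi-likelihood, 1 model of 9 embryos, no covariate). Both call thresholds are those the study states for these embryos. The filter is the one it states for its comparison of developmental stages, and none is stated for these libraries. DESeq2 1.42.0 and limma 3.58.1 were alternatives. The SE is the log2 fold change divided by the square root of F. Log2 CPM has a prior count of 0.5. GENCODE M21 (GRCm38) gave lengths, the GC content of the longest transcript and the coding stretches, and it held 52029 of the genes, 13561 of them tested. The GC correction was a loess fit of span 0.3 per library. Exact permutation tests used SciPy 1.17.1 and figures matplotlib 3.10.9. The fits were tested on simulated data.

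Named were the 10 genes, their Elavl and Celf relatives, the label checks Cnot3 and Trp53, and of 28 other neural RNA-binding protein genes those with all mutant embryos beyond Ctrl in both mutants or with the smallest adjusted p. The 10 genes and all lists were chosen with earlier results of these data known. Embryos of a genotype are separate animals. Same-numbered replicates did not deviate together (mean r = -0.17 over 9 pairs). The 3 pairs of embryos sharing a number in their code had r of 0.19, -0.014 and -0.54 (mean -0.12). These are too few and too uneven to decide whether such embryos are paired. Neither number was used in the main model, and each was run as a block. One marker of the dissected region is not reported here.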

Additional observations from a re-analysis of the deposited data

How the results depend on the processing

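The median log2 fold change of the 10 genes stayed negative in both mutants under every alternative run, lying between -0.42 and -0.24 (cKO) and between -0.47 and -0.018 (dcKO). The number called was 0 with RLE factors, with filterByExpr and with no fold limit (background 0.0% lower in both mutants), with upper-quartile factors (0.68% in cKO, 0.0% in dcKO) and after GC correction (1.53% and 0.00737%). In cKO it was 1 with DESeq2 and with no filter (Elavl3 in both, background 3.87% and 1.59% lower), and 2 (Elavl3 and Rbfox3) with voom weights, with only the 6 embryos compared and with the embryo code number as a block (background 6.66%, 5.94% and 7.52%). In dcKO it was 1 with DESeq2 and with no filter (Elavl3, background 3.79% and 1.41%), 3 with voom weights (Elavl3, Rbfox3 and Celf3, background 15.9%) and 2 with the code number block (Celf3 and Nova1, background 11.9% in either direction). Between dcKO and cKO it was 3 with the code number block (Celf3, Rbfox3 and Celf4, background 11.6%), and the median was -0.23 with voom weights. The code number block leaves 1 residual degree of freedom, so its calls rest on the spread borrowed across genes. Its cKO effect comes from 2 pairs of embryos, in both of which all 10 genes were lower, and its dcKO effect from 1 pair, dcKO 3 and Ctrl 3. What that number stands for is not stated. When single embryos were left out, the number called ranged from 0 to 2 in cKO, from 0 to 3 in dcKO and stayed at 0 between them. The median ranged from -0.41 to -0.31, from -0.33 to -0.018 and from -0.11 to 0.39. Without any 1 of the Ctrl or cKO embryos none was called in cKO by either tool. DESeq2 called Elavl3 and Rbfox3 in cKO without dcKO 1 or dcKO 3 (background 4.89% and 6.02%), and Elavl3 without dcKO 2 (background 4.79%). In dcKO DESeq2 called none without dcKO 1 (background 1.3%) and Elavl3 without dcKO 2 (background 4.42%). Without dcKO 3 it called Elavl3, Rbfox3 and Celf3 there (background 15.9%). Without dcKO 1 or dcKO 3 edgeR called Elavl3 in cKO (background 2.93% and 5.49%), where all embryos share 1 estimate of spread, and without dcKO 3 it called Elavl3 (-1.23), Rbfox3 and Celf3 in dcKO (background 15.3%). The difference from the neuron markers ranged from -0.36 to -0.11 in cKO, -0.12 to 0.11 in dcKO and 0.086 to 0.22 between them.

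Signs changed mostly in dcKO. Celf4 was at -0.012 with DESeq2, -0.012 with RLE factors, -0.40 with voom weights, -0.081 with no filter, -0.065 with filterByExpr and -0.028 with the 6 embryos alone. Elavl1 was at -0.045 with voom weights, -0.039 with no filter and -0.025 with filterByExpr, and Nova1 at -0.011 with no filter. With the code number block Elavl2 was at -0.59, Elavl4 -0.17, Nova1 -1.01, Rbfox1 0.074, Rbfox3 0.074, Celf3 1.23, Elavl1 -0.39 and Celf5 0.48. With GC correction Elavl2 was at -0.35, Elavl4 -0.39, Nova1 -0.59, Celf4 -0.083 and Elavl1 -0.31. With the replicate number as a block and GC correction together, these 5 were at -0.36, -0.39, -0.58, -0.062 and -0.32. The replicate block alone called 0 of the 10 genes in every comparison and gave medians of -0.33 in cKO, -0.24 in dcKO and 0.059 between them. Same-numbered embryos share only a number, and the block changed no call. Over the same omissions, dcKO estimates ranged from -0.31 to 0.65 for Elavl2, -0.20 to 0.42 for Elavl4, -0.35 to 0.43 for Nova1, -0.18 to 0.27 for Celf4, -0.24 to 0.25 for Elavl1, -0.45 to 0.044 for Celf1, -0.71 to 0.19 for Celf2 and -0.22 to 0.84 for Celf6. That of Celf4 in cKO ranged from -0.37 to 0.073. Apart from the GC correction and the blocks, whose construction sets what they remove, the cause was not tested. Rbfox1 had the fewest reads, 32 to 69 per embryo, and whether depth limits its test was not tested.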
